A study of Mus musculus with 6 samples.

Results

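The genes described here form the response axis built around the transcription factor T-bet and the cytokines IL-12 and IL-18, and they were chosen by name as 8 of the 22180 genes measured on the arrays. They are the master regulator Tbx21, the receptor chain genes Il12rb1, Il12rb2, Il18r1, Il18rap and Il27ra, the signal transducer gene Stat4, and the output cytokine gene Ifng. Each of the 8 was represented by a single row of the deposited table that carried only that gene symbol, so no choice between rows was needed. The study profiled mouse invariant natural killer T (iNKT) cells, T cells with a nearly fixed receptor for lipids, on Affymetrix whole-transcript arrays. The 6 arrays fell into a wild-type group (WT, 3 arrays) and a PLZF_ON group (3 arrays) from mice whose PLZF, the transcription factor encoded by Zbtb16, is held in a constitutively acetylated form. Replicates 1 and 2 of each group, 4 arrays, are named in the design description as those analysed, so they gave the first comparison, and all 6 arrays gave a second. The strain, age, sex, organ and sorting of the cells, and the way in which the PLZF form is expressed, are not given in the labels, and neither is whether replicates were separate animals. The p-values therefore describe the spread among these arrays alone, and that spread may be technical.

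IL-12 binds a receptor of the chains IL-12Rb1 and IL-12Rb2, which signals through the kinases Jak2 and Tyk2 to the transcription factor STAT4. IL-18 binds IL-18R1 and recruits IL-18RAP, a chain of the same receptor family, and signals through MyD88 and the IRAK kinases. Both pathways meet at Ifng, which T-bet also activates, and T-bet sustains the IL-12Rb2 chain in T helper type 1 cells. In iNKT cells T-bet marks the NKT1 subset, the main source of interferon-gamma among them.

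The promoters of 5 of these genes, Tbx21, Il12rb2, Ifng, Il18r1 and Il18rap, are shown as places where T-box, STAT and Runx factors could act on the axis. Each window runs from 250 bases before to 50 bases after a RefSeq start site (build GRCm38.p6), read 5′ to 3′ along the gene's own strand. Capitals mark matches on either strand to the T-box half-site GGTGTG, the STAT site TTCNNNGAA and the Runx site TGTGGT. Of the Il18r1 windows only the second, which held T-box and Runx matches, is printed. The first, without a match, and the third, with STAT matches, are not printed, nor are the Stat4 windows.
Tbx21 (chr11:97115282-97115581, minus strand): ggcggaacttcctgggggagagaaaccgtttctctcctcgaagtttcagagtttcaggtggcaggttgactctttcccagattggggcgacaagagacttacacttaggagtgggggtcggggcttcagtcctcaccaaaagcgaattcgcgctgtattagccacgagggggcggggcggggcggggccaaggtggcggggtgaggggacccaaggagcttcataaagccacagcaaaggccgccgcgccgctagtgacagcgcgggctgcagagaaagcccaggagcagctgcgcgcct
Il12rb2 (chr6:67376139-67376438, minus strand): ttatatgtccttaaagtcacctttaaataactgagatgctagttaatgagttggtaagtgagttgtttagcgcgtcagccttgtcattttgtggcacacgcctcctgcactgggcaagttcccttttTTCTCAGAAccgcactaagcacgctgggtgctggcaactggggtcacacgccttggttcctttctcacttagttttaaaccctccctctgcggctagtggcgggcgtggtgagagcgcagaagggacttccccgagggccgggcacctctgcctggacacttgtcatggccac
Ifng (chr10:118440796-118441095, plus strand): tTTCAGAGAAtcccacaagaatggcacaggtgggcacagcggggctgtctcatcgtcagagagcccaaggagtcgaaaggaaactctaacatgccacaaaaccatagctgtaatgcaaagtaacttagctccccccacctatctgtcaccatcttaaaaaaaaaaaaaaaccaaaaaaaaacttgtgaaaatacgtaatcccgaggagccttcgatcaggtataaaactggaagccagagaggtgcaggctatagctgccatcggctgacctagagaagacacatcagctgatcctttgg
Il18r1, the second of its 3 windows (chr1:40465371-40465670, plus strand): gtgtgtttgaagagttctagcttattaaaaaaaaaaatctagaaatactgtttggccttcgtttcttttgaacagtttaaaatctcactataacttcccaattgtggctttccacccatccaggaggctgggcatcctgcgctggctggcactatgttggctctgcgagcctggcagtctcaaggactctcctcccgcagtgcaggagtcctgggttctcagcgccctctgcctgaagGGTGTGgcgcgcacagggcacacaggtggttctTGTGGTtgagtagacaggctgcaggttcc
Il18rap (chr1:40515112-40515411, plus strand): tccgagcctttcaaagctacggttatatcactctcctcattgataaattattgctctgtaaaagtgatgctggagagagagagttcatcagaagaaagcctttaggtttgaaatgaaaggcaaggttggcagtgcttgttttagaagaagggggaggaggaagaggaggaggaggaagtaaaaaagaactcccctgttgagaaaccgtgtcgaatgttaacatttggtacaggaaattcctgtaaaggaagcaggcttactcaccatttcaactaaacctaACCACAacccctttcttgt

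Of the 8 genes, 6 matched a promoter window by symbol, with 3 windows for Il18r1 and 2 for Stat4. The STAT site stood once in the Il12rb2 window, from position -123 relative to the start site, and once in the Ifng window, from position -249, and it stood at 2 places in the third Il18r1 window. In all, 8.30% of the 32851 windows in the table held this site. The T-box half-site stood once, in the second Il18r1 window, from position -12, and was found in 19.0% of all windows. The Runx site stood in the second Il18r1 window and in that of Il18rap, both times after the start, and was found in 16.8% of all windows. The windows of Tbx21 and Stat4 held none of the 3 motifs. No overlap between matches of different motifs occurred in these windows.

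Median log2 values ran from 4.88 to 5.01 over the 6 arrays. PLZF_ON replicate 3 stood apart from the rest, with correlations of 0.895 to 0.898 with the other arrays across all rows and an SD of 1.79 against 1.97 to 2.01. The T cell markers Cd3d, Cd3e, Cd3g, Thy1, Cd5 and Zbtb16 were all above background in the mean of the arrays, where background is the level (5.21) that 95% of 1390 receptor genes of smell and pheromone sensing did not exceed. Their summed log2 level ran from 13.22 to 13.40 in WT and from 12.75 to 13.38 in PLZF_ON. Genes listed as natural killer cell markers (Ncr1, Eomes, Klrb1c and Klre1, 4 of 4 measured, none below background on every array) had a summed log2 level of 10.33 to 10.71 in WT and 7.83 to 9.79 in PLZF_ON. Klrb1c, at 9.295 to 10.238, was the brightest of them on every WT array and led the sum there, while Ncr1 and Eomes overlapped between the groups. These levels do not show which cells carried the RNA. Markers of CD8 T cells (Cd8a and Cd8b1, 2 of 2 measured) ranged from 5.90 to 6.19 in WT and from 5.79 to 8.29 in PLZF_ON, the highest value being that of replicate 3. Zbtb16, the gene of the altered protein, had log2 levels of 9.96, 10.18 and 9.82 in WT and 10.48, 10.68 and 9.54 in PLZF_ON. The labels concern the acetylation of its protein, which this mRNA level does not check.

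In PLZF_ON 7 of the 8 axis genes had means below those of WT by more than 1.5-fold over the 4 arrays, with groups that did not overlap (1.97% of all rows), and the means of Il27ra, the remaining gene, differed by -0.11 on the log2 scale. The median log2 difference of the 8 genes was -1.34, against -0.003 over all 23521 tested rows. With limma, 0 of the 8 passed an adjusted p of 0.05 over all rows, a call reached by 0.17% of all rows. At an unadjusted p under 0.05, 6 of the 8 were lower, while 4.53% of all rows met this rule. Groups were apart with PLZF_ON lower for 7 of the 8, against 19.3% of all rows. Over the 6 arrays the median difference was -1.22, against 0.03 over all rows, and 1 of the 8, Il12rb2, passed the limma adjusted p, a call reached by 0.0935% of rows and, in the lower direction, by 0.068%. There 6 of the 8 were lower at an unadjusted p under 0.05 (3.32% of all rows), and 5 had groups apart with PLZF_ON lower (6.22% of all rows). In bulk RNA, fewer cells of a type and less RNA per cell cannot be told apart.

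**Figure D1:**
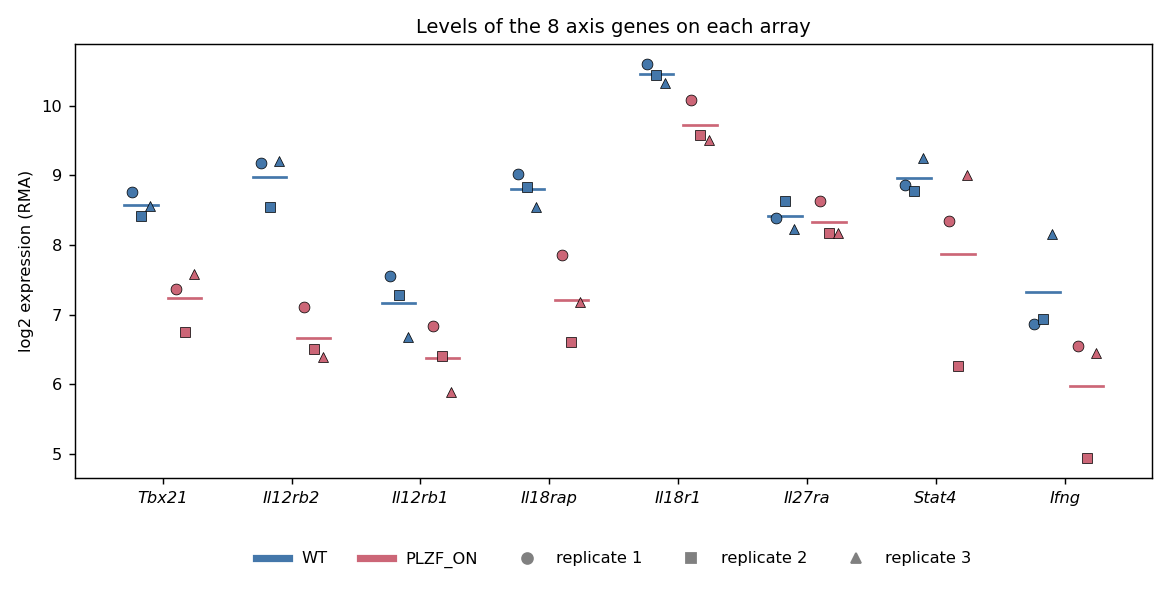
Log2 expression (vertical axis, RMA values) of the 8 axis genes on each of the 6 arrays, WT in blue and PLZF_ON in red, with symbols for replicate numbers and bars for group means. The PLZF_ON arrays lie below every WT array for Tbx21, Il12rb2, Il18rap, Il18r1 and Ifng, and the groups overlap for Il12rb1, Il27ra and Stat4.

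Tbx21 encodes T-bet, the factor that defines type 1 lymphocytes (array row 17268445). In order of replicate number, the WT arrays were at log2 levels of 8.76, 8.42 and 8.56 and the PLZF_ON arrays at 7.37, 6.75 and 7.58. All PLZF_ON arrays lay below all WT arrays, with a gap of 0.84 between the nearest arrays, and WT was the tighter group (SD 0.17 against 0.43, n = 3 each). The 4-array log2 difference was -1.53, a 2.88-fold lower mean (SE 0.24, n = 2, limma adjusted p = 0.102). It ranked 61 from the lowest among all tested rows by size of difference. Over 6 arrays it was -1.35 (SE 0.23, n = 3, limma adjusted p = 0.142), and without PLZF_ON replicate 3 it passed (-1.52, limma adjusted p = 0.0407). On leaving out any other single array of the 6 it did not pass, with a difference between -1.43 and -1.11. The limma adjusted p then ran from 0.239 without PLZF_ON replicate 2 to 0.701 without WT replicate 1.

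Il12rb2 encodes the chain that gives the IL-12 receptor its signalling tail for STAT4 (array row 17467323), and it was the gene of the axis with the largest difference in both comparisons. Its log2 level was 9.18, 8.54 and 9.21 in WT and 7.106, 6.509 and 6.395 in PLZF_ON, in order of replicate number. The groups were far apart, with 1.44 between the lowest WT and the highest PLZF_ON array, which is more than 3 times the SD of 0.37 in WT and 0.38 in PLZF_ON. Over all 6 arrays Il12rb2 fell 4.94-fold, a log2 difference of -2.31 (SE 0.26, n = 3, limma adjusted p = 0.0425). This difference ranked 14 from the lowest among all rows. Over the 4 arrays the difference was -2.05, or 4.15-fold (SE 0.28, n = 2, limma adjusted p = 0.075). The 6-array call was kept without PLZF_ON replicate 3, the array that stood apart (-2.17, limma adjusted p = 0.0278). It was lost on leaving out any other single array, with limma adjusted p from 0.0556 without PLZF_ON replicate 1 to 0.303 without WT replicate 1, while the difference stayed between -2.52 and -2.19.

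Il12rb1 encodes the chain that the IL-12 and IL-23 receptors share (array row 17502051). It was at 7.56, 7.28 and 6.68 in WT and at 6.83, 6.41 and 5.90 in PLZF_ON. Among replicates 1 and 2 the groups were apart by 0.45, whereas WT replicate 3 lay below PLZF_ON replicate 1, and in both groups replicate 3 was the lowest. The difference was -0.80 over 4 arrays (SE 0.19, limma adjusted p = 0.245) and -0.79 over 6 (SE 0.30, limma adjusted p = 0.771).

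Both chains of the IL-18 receptor were lower in every PLZF_ON array than in any WT array. Il18rap, the accessory chain that completes the signalling complex (array row 17212252), was at 9.02, 8.83 and 8.55 in WT and at 7.86, 6.61 and 7.18 in PLZF_ON. Its PLZF_ON values were spread more widely than those of WT (SD 0.63 against 0.24), with replicate 2 the lowest. The difference was -1.69, or 3.23-fold, over 4 arrays (SE 0.38, limma adjusted p = 0.216) and -1.58 over 6 (SE 0.31, limma adjusted p = 0.207). Leaving an array out of the 4-array comparison leaves 1 array in its group, which is then assumed to vary like the 2 arrays of the other group. On that assumption the difference was -1.06 without PLZF_ON replicate 2 (limma adjusted p = 0.289), and with replicate 2, the lowest array, as the lone PLZF_ON array it was -2.32 (limma adjusted p = 0.0486).

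Il18r1, the chain that binds IL-18 (array row 17212229), was at 10.60, 10.43 and 10.32 in WT and at 10.09, 9.57 and 9.51 in PLZF_ON. The groups were apart by 0.24, a smaller gap than that of Il18rap (0.68), and the 6-array difference was -0.73, or 1.66-fold (SE 0.20, limma adjusted p = 0.44). Over 4 arrays it was -0.69 (SE 0.20, limma adjusted p = 0.342), and -0.43 without PLZF_ON replicate 2.

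Il27ra encodes the chain that pairs with gp130 to bind IL-27, a cytokine of the IL-12 family (array row 17510994). It was at 8.39, 8.63 and 8.22 in WT and at 8.63, 8.18 and 8.17 in PLZF_ON, so that the groups interleaved. The difference was -0.11 over 4 arrays (95% interval -0.58 to 0.37, limma adjusted p = 0.935) and -0.09 over 6 (95% interval -0.54 to 0.36, limma adjusted p = 0.961), and its sign turned under renewed quantile normalization of 6 arrays and without some arrays. These intervals, which are not adjusted for the number of rows, exclude a difference as large as that estimated for any other gene of the axis over the same arrays.

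Stat4 encodes the transcription factor that carries the IL-12 signal (array row 17212724). It was at 8.86, 8.78 and 9.25 in WT and at 8.345, 6.267 and 8.997 in PLZF_ON. A single array, PLZF_ON replicate 2, lay far below the others, and PLZF_ON replicate 3 lay above WT replicates 1 and 2. The difference was -1.51 over 4 arrays (SE 0.61, limma adjusted p = 0.521) and -1.09 over 6 (SE 0.62, limma adjusted p = 0.941). Without PLZF_ON replicate 2 it was -0.47 over 4 arrays and -0.29 over 6. Without PLZF_ON replicate 1 the 4-array difference was -2.55 (limma adjusted p = 0.0371), but this sets the low replicate 2 alone against 2 WT arrays, which supply all of the spread between replicates.

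Ifng, the output cytokine of the axis (array row 17237589), was at 6.87, 6.94 and 8.16 in WT and at 6.55, 4.94 and 6.45 in PLZF_ON. The groups were apart by 0.32, but each held an array that stood off, WT replicate 3 above and PLZF_ON replicate 2 below, the latter under the background level of 5.21. The difference was -1.16 over 4 arrays (SE 0.48, limma adjusted p = 0.532) and -1.35 over 6 (SE 0.50, limma adjusted p = 0.75). Without PLZF_ON replicate 2 it was -0.36 over 4 arrays and -0.83 over 6.

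**Figure D2:**
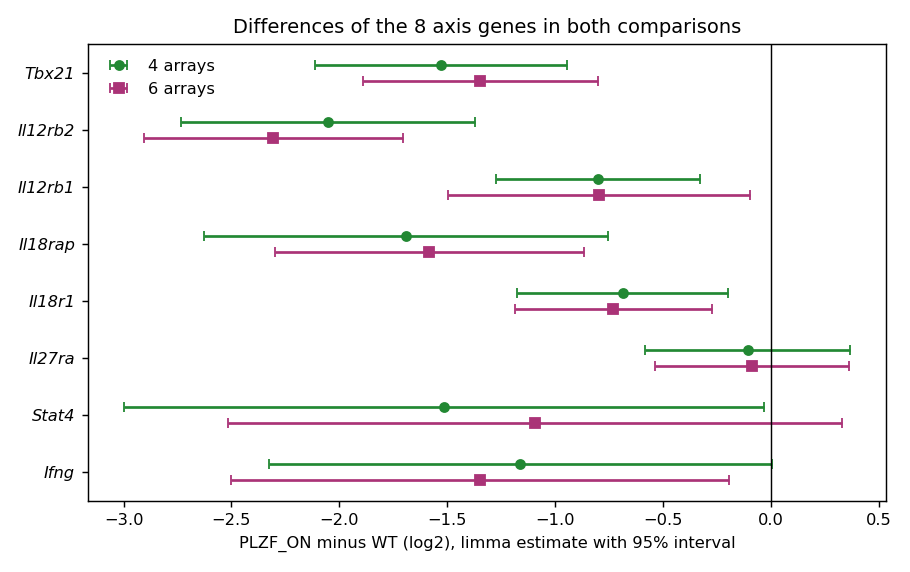
PLZF_ON minus WT on the log2 scale (horizontal axis) for the 8 axis genes, as limma estimates with unadjusted 95% intervals, over 4 arrays (green circles) and 6 arrays (purple squares). The estimates run from -2.31 for Il12rb2 to -0.09 for Il27ra over 6 arrays, and the widest intervals belong to Stat4 and Ifng.

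The PLZF_ON arrays differed in which genes of the axis were lowest. PLZF_ON replicate 2 had the lowest level of all arrays for 4 of the 8, Tbx21, Il18rap, Stat4 and Ifng, and replicate 3 for the other 4, Il12rb1, Il12rb2, Il18r1 and Il27ra. Measured from the mean of the 3 WT arrays, the median log2 difference of the 8 genes was -0.70 in PLZF_ON replicate 1, -2.01 in replicate 2 and -0.97 in replicate 3. Natural killer cell markers moved with this order in part, since their mean log2 level was 5.27 in PLZF_ON replicate 2 against 7.58 and 7.23 in PLZF_ON replicates 1 and 3 and 7.30 to 7.83 in WT. Of these, Ncr1, an activating receptor of natural killer cells, was at 4.80 in PLZF_ON replicate 2 and at 7.65 and 8.25 in the other PLZF_ON arrays, against 5.80 to 7.48 in WT, and Eomes likewise overlapped between the groups. The receptor genes Klrb1c (8.63, 7.25 and 7.78 in PLZF_ON against 9.295 to 10.238 in WT) and Klre1 (7.72, 4.82 and 7.27 against 7.856 to 8.715) were lower on every PLZF_ON array than on any WT array. In PLZF_ON replicate 3, Cd8b1 was at 7.77 against at most 5.89 on the other arrays, and the macrophage lysozyme gene Lyz2 at 6.58 against at most 4.48. Of the other macrophage markers, Csf1r (5.09), Fcgr1 (4.745) and Adgre1 (3.955) were also highest on that array but stayed below background. Itgam, at 5.235, was lower there than in PLZF_ON replicate 1 (5.608). The measured markers of hepatocytes (Alb at 5.215, Apoa1 at 5.668 and Ttr at 5.445) were all highest on PLZF_ON replicate 3 too. So were those of thymic epithelium (Krt8 at 6.427, Epcam at 4.507 and Psmb11 at 4.332). Markers of B cells and dendritic cells were highest there only in part. Over 6 arrays the difference of Il12rb2 was -2.22 without PLZF_ON replicate 2 (limma adjusted p = 0.121) and -2.17 without PLZF_ON replicate 3 (limma adjusted p = 0.0278). The part of the markers in this and the other results was not tested.

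Whether the 2 chains of a receptor differed to the same extent was examined within each array, in 4 pairs of genes, with exact two-sided permutation tests over arrays. The smallest exact p that 3 against 3 arrays allow is 0.1, and 2 against 2 arrays cannot go below an exact p of 0.33. Il12rb2 minus Il12rb1 was 1.62, 1.26 and 2.53 in WT and 0.27, 0.10 and 0.50 in PLZF_ON. The groups were apart, and the 6-array shift was -1.51 (n = 3 arrays per group, exact permutation p = 0.1, the smallest possible, and 0.2 adjusted over the 4 pairs). Il18r1 minus Il18rap was 1.58, 1.60 and 1.78 in WT and 2.22, 2.96 and 2.33 in PLZF_ON, so the accessory chain was lower relative to the binding chain on each PLZF_ON array. That shift was 0.85 (n = 3, exact permutation p = 0.1, and 0.2 adjusted). Tbx21 minus Stat4 shifted by -0.25 (exact permutation p = 0.7, adjusted 0.933), with SD 0.997 in PLZF_ON, and Ifng minus Tbx21 by 0.00 (exact permutation p = 1, adjusted 1), with SD 0.77 in WT and 0.51 in PLZF_ON. Over the 4 arrays the shifts were -1.25, 1.004, -0.01 and 0.37 in the same order, with exact permutation p adjusted to between 0.667 and 1, and the Il18r1 minus Il18rap shift was 0.635 without PLZF_ON replicate 2.

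**Figure D3:**
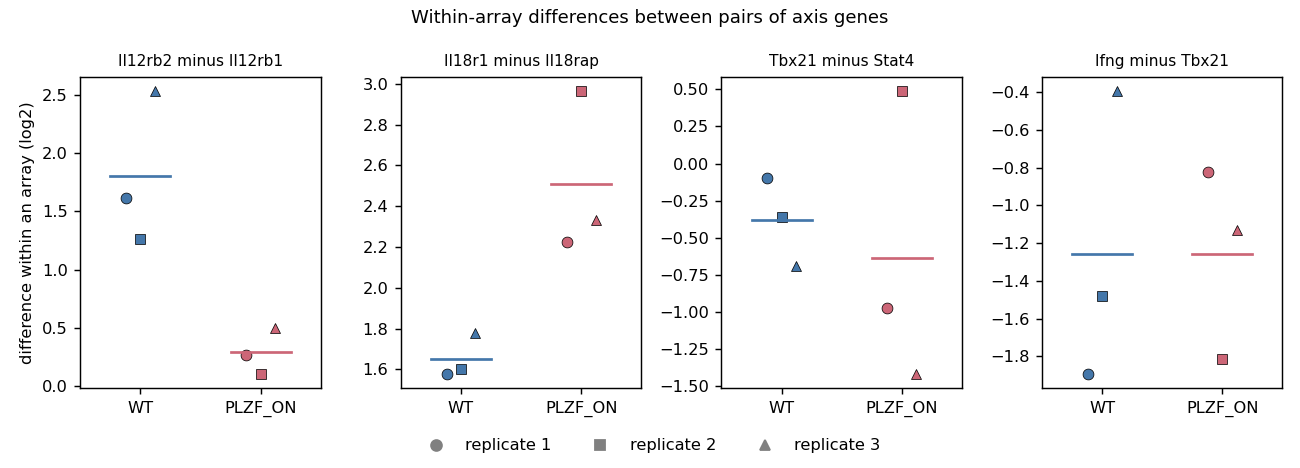
Difference in log2 value between the genes of a pair within each array (vertical axes, each on its own scale), WT in blue and PLZF_ON in red, with symbols for replicate numbers and bars for group means. The groups are apart for Il12rb2 minus Il12rb1 and for Il18r1 minus Il18rap, and overlap for Tbx21 minus Stat4 and Ifng minus Tbx21.

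Members of the axis lie beside other receptor genes on the chromosomes. Il12rb2 is followed on chromosome 6 by Il23r, the IL-23 receptor chain that pairs with IL-12Rb1, which fell 8.85-fold over the 4 arrays (-3.15, SE 0.26, limma adjusted p = 0.0206). The PLZF_ON mean of Il23r, 3.83, was below the background level, so the size of its fold is uncertain. On the other side Serbp1, an RNA-binding protein gene, differed by 0.01. Il18r1 and Il18rap are direct neighbours on chromosome 1 within the IL-1 receptor cluster. Il1rl1, the gene directly before Il18r1, had no row with a single symbol. Of the measured genes around the pair, Il1rl2, a receptor for IL-36, differed by -0.01, Slc9a4, a sodium-proton exchanger gene, by -0.02 and Slc9a2 by -0.17. None of these passed (limma adjusted p from 0.874 to 0.989). In the same cluster Il1r1, the IL-1 receptor, fell 10.4-fold over the 4 arrays (-3.38, SE 0.20, limma adjusted p = 0.0123), to a PLZF_ON mean of 4.56, also below background, so this fold is uncertain too. It was the single member of 6 measured in that cluster list to pass, against 0.17% of all rows passing in either direction. Il1r2, the decoy receptor, differed by -0.09 at a level below background in both groups.

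**Figure D4:**
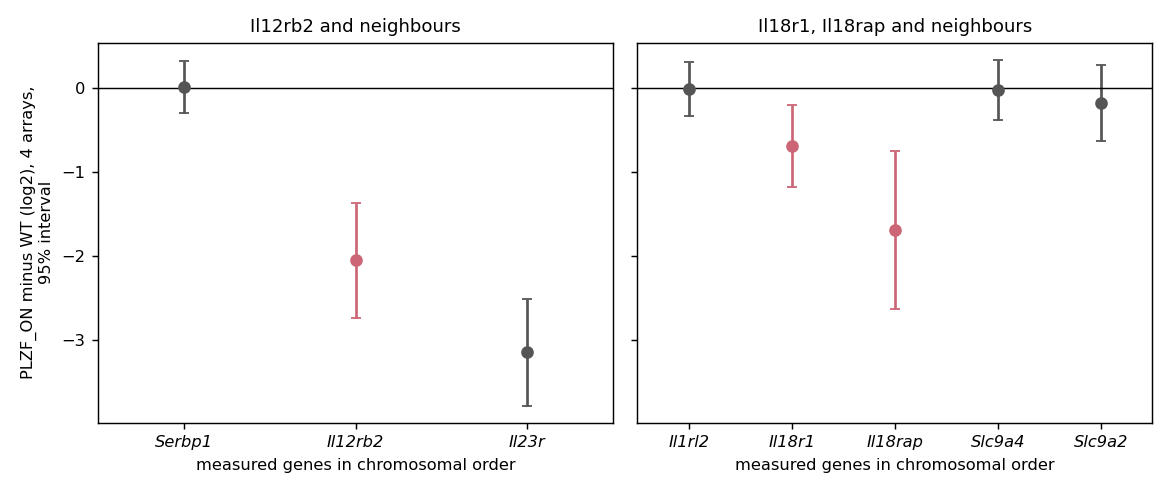
PLZF_ON minus WT on the log2 scale over 4 arrays with unadjusted 95% intervals (vertical axis) for Il12rb2, Il18r1 and Il18rap (red) and measured genes beside them (grey), in chromosomal order. Il23r lies below Il12rb2 at -3.15, and the measured genes shown around the IL-18 receptor pair lie within 0.2 of no difference. Il1rl1, directly before Il18r1, was not measured.

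Genes around the axis were read from 6 lists drawn up by function, but with earlier results of these data known. Their counts beside the share of all rows are therefore descriptions. Among 17 measured genes of IL-12 family signalling the median difference over 4 arrays was -0.01, and 1 passed as lower (Il23r) and 0 as higher, against 0.17% of all rows passing in either direction. The kinases of the IL-12 receptor, Jak2 and Tyk2, differed by 0.00 and -0.54 (limma adjusted p = 0.999 and 0.433). Il6st, the gp130 partner of Il27ra, differed by 0.73 (limma adjusted p = 0.305), Stat5b, a transducer of IL-2 family cytokines, by 0.61 (0.224) and Socs3, a feedback inhibitor, by -0.56 (0.287). Over 6 arrays Il6st, Stat5b and Socs3 differed by 0.59, 0.35 and -0.30, with groups that overlapped (limma adjusted p from 0.832 to 0.941). The cytokine genes Il12a, Il12b, Il23a and Ebi3 had mean levels below background in both groups over the 4 arrays.

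Among 17 measured genes of IL-18 and IL-1 family signalling, 1 passed as lower (Il1r1) and 1 as higher (0.17% of all rows in either direction), with a median of -0.08. The latter was Irak3, an inhibitor of the kinases below IL-18 and Toll-like receptors, at 4.84, 5.10 and 4.71 in WT and 7.55, 8.14 and 5.45 in PLZF_ON. It rose 7.35-fold over 4 arrays (SE 0.22 on the log2 scale, limma adjusted p = 0.0206) from a WT mean below background, so the size of the fold is uncertain, and did not pass over 6 arrays (2.16, limma adjusted p = 0.482), where replicate 3 was the lowest PLZF_ON array. Irak2, a kinase of the same complex, differed by -0.42 (limma adjusted p = 0.386), Myd88 by 0.04 and Traf6 by 0.30. Gadd45g, a stress protein that promotes Ifng expression through p38 kinases, differed by 0.36 (limma adjusted p = 0.532).

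Of 17 measured T-bet partners and opposing factors, 0 passed as lower and 1 as higher over the 4 arrays (0.17% of all rows in either direction). Lef1, a factor of naive T cells, rose 3.08-fold (limma adjusted p = 0.0347), with levels of 9.29, 9.53 and 9.63 in WT and 10.93, 11.13 and 9.75 in PLZF_ON. Over 6 arrays Lef1 did not pass (1.12, limma adjusted p = 0.577). Runx3, which acts with T-bet on Ifng, was at 8.78, 8.69 and 8.88 in WT and 7.69, 6.76 and 7.45 in PLZF_ON, a 6-array difference of -1.48 (SE 0.24, limma adjusted p = 0.128). Bhlhe40, a repressor that supports interferon-gamma production, differed by -1.22 over 6 arrays (SE 0.22, limma adjusted p = 0.154), again with groups apart. Bcl6, a repressor that opposes T-bet in follicular helper cells, differed by 0.78 over 4 arrays (limma adjusted p = 0.148) and 0.33 over 6 (0.941). Runx1, Hlx and Eomes, the T-box factor closest to T-bet, differed by 0.21, -0.02 and 0.32 over 4 arrays.

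The list of genes that T-bet is linked to in lymphocytes was likewise drawn up with earlier results known. These genes had a median of -1.04 over 4 arrays and -1.22 over 6 (15 measured, 13 of them below 0 in both). With limma 0 passed in either comparison, a call reached by 0.17% of all rows over 4 arrays and 0.0935% over 6. At an unadjusted p under 0.05, 10 were lower over 4 arrays, with the same count over 6 (4.53% and 3.32% of all rows). Nkg7, a granule membrane protein, had a 6-array difference of -1.64 (SE 0.23, limma adjusted p = 0.0714), Gzmb, a cytotoxic protease, -3.73 (SE 0.48, limma adjusted p = 0.055) and Fasl, a death ligand, -2.86 (SE 0.38, limma adjusted p = 0.0584). Over 4 arrays the limma adjusted p of Nkg7, Gzmb and Fasl was 0.0759, 0.115 and 0.118. Il2rb, the receptor chain for IL-2 and IL-15, differed by -0.98 over 4 arrays (SE 0.17, limma adjusted p = 0.116) and by -1.22 over 6 (SE 0.305, limma adjusted p = 0.369). Of the chemokine genes in the list, Ccl4 differed by 0.36 (SE 0.24) and Ccl3 by 0.09 (SE 1.10) over 4 arrays. Over 6 arrays they differed by 0.50 (SE 0.35) and -0.36 (SE 0.89), with groups that overlapped. Ccl5 differed by -1.04 over 4 arrays (SE 0.81) and by -1.04 over 6 (SE 0.65), also with overlap. Xcl1 was lower, by -1.42 over 4 arrays (SE 0.415) and -1.45 over 6 (SE 0.34), with groups apart in both comparisons.

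In the list of the Ifng locus and interferon-gamma signalling, 0 of 13 measured genes passed in either comparison (0.17% of all rows over 4 arrays and 0.0935% over 6). The 4-array median was -0.10. The receptor chains for interferon-gamma differed in opposite directions. Ifngr1, the binding chain, was at 9.11, 8.95 and 9.16 in WT and 8.45, 7.50 and 7.75 in PLZF_ON, and Ifngr2, the signalling chain, at 6.07, 6.33 and 6.09 in WT and 7.17, 6.76 and 6.58 in PLZF_ON. The groups were apart for both, with 6-array differences of -1.17 (SE 0.25, limma adjusted p = 0.274) and 0.67 (SE 0.19, limma adjusted p = 0.504). Nlrc5, an activator of MHC class I genes, differed by -0.56 and the chemokine gene Cxcl10 by -0.68 over 4 arrays, the latter at levels near or below background. Beside Ifng on chromosome 10, Il22 differed by -0.10 at a level below background and Dyrk2, a kinase gene, by -0.05.

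**Figure D5:**
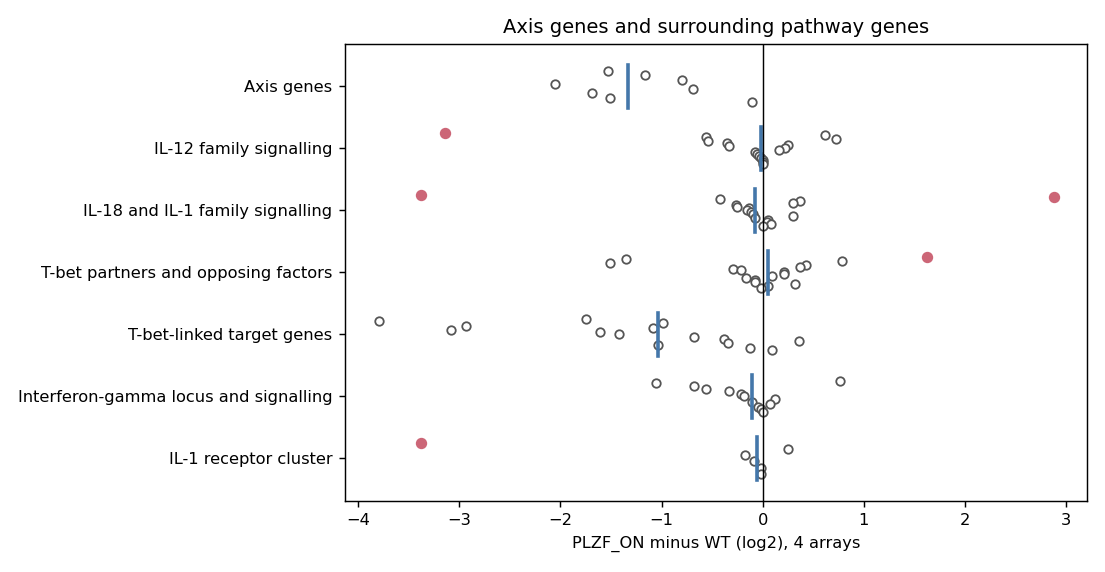
PLZF_ON minus WT on the log2 scale over 4 arrays (horizontal axis) for the axis genes and the measured genes of 6 surrounding lists, 1 point per gene, filled where the limma adjusted p was under 0.05, with blue bars for list medians. The medians are -1.34 for the axis genes and -1.04 for T-bet-linked target genes, and lie between -0.10 and 0.05 for the other lists.

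The genes most like Tbx21 were sought among 10099 named genes at or above the median level, by the root mean square difference between profiles centred on their mean over the 6 arrays. The 5 nearest were Bhlhe40 (0.14 on the log2 scale), Rgs1, a regulator of G protein signalling (0.16), Nkg7 (0.16), Herc3, of the HERC family of ubiquitin ligases (0.17), and Runx3 (0.18). Within the axis Il18rap was nearest to Tbx21, at rank 30 with 0.32, then Il18r1 at rank 99 with 0.42, while Il12rb2, with the larger difference, stood at rank 690 with 0.59. Closest to Ifng were Xcl1, a chemokine gene (0.34), Ctla2a, a protease inhibitor gene (0.40), Ccl5, a chemokine gene (0.40), AW112010 (0.42) and Gzmc, a granzyme (0.44). Stat4 stood at rank 9 with 0.47 and Tbx21 at rank 17 with 0.53. Ifng, Stat4 and Ccl5 shared a lowest value in PLZF_ON replicate 2, with Ccl5 at 7.91 there against 10.1 to 11.2 on the other arrays. These likenesses rest on 6 arrays that share the group difference and the array effects, and they are descriptions without a test.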

How the data were processed

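Expression was measured on 6 Affymetrix whole-transcript arrays (WT and PLZF_ON, 3 each). Values were used as deposited, as log2 expression per array feature; RMA is named per the submitters' processing notes, without a version, and no array annotation or genome build is given in the sources used here. As a method, RMA corrects background, equalises the distributions of the arrays and summarises probes, which compresses changes of dim genes. The deposited values did not have equal distributions, with an SD of 1.79 in PLZF_ON replicate 3 against 1.97 to 2.01 in the other arrays. Renewed quantile normalization gave smaller 6-array differences for the axis genes, such as -1.185 in place of -1.346 for Tbx21. Of 41345 rows, the 23521 with exactly 1 symbol in the platform annotation were tested, 1814 with several symbols were left out and 16010 were not listed. By Entrez number 23328 matched RefSeq, and 0 symbols were updated. Where a gene had several rows, the brightest by mean was taken.

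In R 4.3.3, limma 3.58.1 was applied to each comparison (lmFit, eBayes without trend, two-sided, genotype alone) with Benjamini-Hochberg adjustment over the tested rows. Residual degrees of freedom were 2 over 4 arrays and 4 over 6, with 4.10 and 3.78 from the prior. The fit was tested on simulated data. The precision is limited by the number of arrays. Promoters are those of RefSeq GRCm38.p6. The RefSeq table gave names and gene order alone.

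The genes, lists and tests were chosen with earlier results of these data known. Named genes were the 8 of the axis, up to 4 per list by 4-array p, and the 5 most like Tbx21 and Ifng; Jak2, Tyk2, Il12a, Il12b, Il23a, Ebi3, Myd88, Traf6, Runx1, Hlx, Eomes, Ccl3, Ccl4, Il1rl2, Slc9a4, Il22, Dyrk2 and Serbp1 were named for their roles or position after values were seen, and the background level is also a later choice. Il1rl1, Irak4, Nfkb1, Zeb2, Tcf7 and Gbp2 had no row with a single symbol and were not analysed here. Of the other marker lists, B cell markers (4 of 5 measured) had means below background, as had dendritic cell markers (4 of 4), while 1 of 5 for macrophages, 1 of 3 for hepatocytes and 1 of 3 for thymic epithelium lay above it; erythroid markers had 0 of 3. Over 6 arrays the deviations of same-numbered arrays of the groups correlated at 0.09, 0.25 and 0.24, and those of differently numbered arrays at -0.235 to 0.124. Whether arrays of a number share an effect was not tested. No label states a pairing, so numbers were not taken as pairs, and a fit with a replicate block is given among the alternatives below.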

Additional observations from a re-analysis of the deposited data

How the results depend on the processing

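The alternatives tried were a replicate block, each array left out, brighter rows alone, a variance trend, renewed quantile normalization, median centring, all deposited rows, array weights, averaging the rows of a gene and other thresholds. The count of axis genes lower at an unadjusted p under 0.05 was 4 to 7 in both comparisons under all of them. With 40 rows called over 4 arrays, the replicate block gave 101, leaving out an array 0 (without PLZF_ON replicate 2, 1803 rows at an unadjusted p under 0.05 by limma) to 106 (without WT replicate 2), and all deposited rows 0 (3042). With 22 rows called over 6 arrays, leaving out an array gave 0 (without WT replicate 1 or 2 or PLZF_ON replicate 2, with 852, 960 and 1531 rows at an unadjusted p under 0.05 by limma) to 107 (without PLZF_ON replicate 3), median centring 5, all deposited rows 0 (2100) and array weights, where PLZF_ON replicate 3 had a weight of 0.146, 259. The split over 6 arrays was 16 lower and 6 higher, with quantile normalization 13 and 8, and with array weights 123 and 136. With the replicate block, a pairing that no label states, Tbx21 (limma adjusted p = 0.0338) and Il12rb2 (0.0189) passed over 4 arrays, and over 6 arrays the block changed no call of the axis genes. Over 6 arrays Il12rb2 did not pass with median centring (0.0744) or all deposited rows (0.207), and Tbx21 passed with array weights (0.0112). Without WT replicate 2 the 4-array adjusted p of Il12rb2 was 0.0297, with WT replicate 1 alone against 2 PLZF_ON arrays, which supply all of the spread between replicates, as the other group does whenever an array is left out of the 4. Leaving out an array took Il27ra from -0.33 to 0.12 over 4 arrays and from -0.24 to 0.02 over 6, and quantile normalization gave 0.07 over 6. Leaving out an array moved the shift of Tbx21 minus Stat4 between -0.74 and 0.72 over 4 arrays and between -0.81 and 0.14 over 6, and that of Ifng minus Tbx21 between -0.13 and 0.86 and between -0.32 and 0.43, while Il12rb2 minus Il12rb1 (-1.43 to -1.07 and -1.78 to -1.15) and Il18r1 minus Il18rap (0.635 to 1.374 and 0.625 to 0.995) kept their direction. The other 7 axis genes kept a negative difference under every alternative run. The cause of these changes was not tested. RMA values carry no detection flag, so levels near background are the least certain.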
